A study of Mus musculus with 24 samples.

Results

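Rod phototransduction and outer segment genes were followed as a set of 37 mouse genes in choroidal RNA. The set was a written list of symbols, and all 37 matched an Ensembl identifier among the 56065 genes measured. RNA of choroid was read in 24 libraries from mice of 2 genotypes, wild type and Ceacam1-/-. Without laser there were 4 wild type libraries (numbered 21, 22, 26 and 27 in the labels) and 4 Ceacam1-/- libraries (23, 24, 25 and 28). After laser there were 9 wild type libraries (1, 2, 3, 11, 12, 13, 16, 17 and 19) and 7 Ceacam1-/- libraries (4, 5, 6, 7, 14, 15 and 18). By the methods of the study, which describe the mice without laser, the animals were on a C57BL/6J background, tested free of the rd8 allele of retinal degeneration, of both sexes and, unless otherwise stated, 6 to 8 weeks old. The knockout mice lack exons 1 and 2 of Ceacam1, which encodes a cell adhesion molecule of endothelial and myeloid cells, in all cells, and the wild type mice were their littermates. In the laser groups choroidal neovascularization, a growth of vessels from the choroid, was induced with 6 spots per eye of a frequency-doubled Nd:YAG laser at 150 mW, 200 µm and 100 ms, and the time between laser and dissection was not given in the sources used here. For the flow cytometry of the study the tissue called choroid was the complex of retinal pigment epithelium (RPE), choroid and sclera left after the retina was taken off. Nothing in the labels says that each library came from a separate mouse. For choroid without laser, a figure caption of the study gives n = 4 mice of each genotype. The p-values therefore measure the spread between these libraries, which may in part be technical.

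Rods are the photoreceptors of dim light, and their cell bodies lie in the retina. Their outer segments, stacks of membrane discs, reach into the RPE, which takes up the shed disc tips. In the disc membrane an activated visual pigment switches on the G protein transducin, transducin frees the phosphodiesterase from its inhibitory subunit, cyclic GMP falls and the cation channel of the plasma membrane closes. Arrestin, a receptor kinase and the RGS9 complex end the response, and guanylate cyclases with their calcium-sensing activators restore cyclic GMP. In bulk tissue, fewer rod cells and less RNA per rod cell cannot be told apart.

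Values are normalized counts, that is, estimated reads of a gene divided by factors for library size and average transcript length. They summed to between 23704346 and 35094410 per library (group medians 25759862 in wild type and 26530696 in Ceacam1-/- mice without laser, 26057571 and 25282017 with laser). The deposited values could not be turned back into whole reads, so no counting interval was given. Ceacam1, the deleted gene, had 958, 5027, 1242 and 4596 normalized counts in the wild type libraries without laser and 405, 505, 508 and 1171 in those of Ceacam1-/- mice. After laser it ranged from 774 to 8367 (median 996, n = 9) in wild type and from 67.8 to 905 (median 335, n = 7) in Ceacam1-/- mice. Ceacam1 was thus lower in most Ceacam1-/- libraries, but the groups overlapped both without and with laser, and the values also count reads of the exons that the deletion leaves. The libraries with the highest Ceacam1 of their groups also held the most RNA of surface epithelium genes. Wild type libraries 22 and 27 without laser, with the higher Ceacam1 values, had sums of 355538 and 84395 for 8 such genes, against 1622 and 3522 in libraries 21 and 26. Libraries 28, 19 and 15, highest for Ceacam1 in the other groups, had 461669, 136202 and 477752, the highest of their groups, and the part of this tissue in the Ceacam1 values was not tested.

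Rod transcripts were present in all 24 choroid libraries, at very unequal levels. The summed value of the 37 genes was 638541, 127939.8, 40218 and 305502 normalized counts in wild type libraries 21, 22, 26 and 27, and 674204, 50780.2, 36409.8 and 42203 in Ceacam1-/- libraries 23, 24, 25 and 28. After laser the sum ranged from 30422 to 264167 (median 81243, n = 9) in wild type mice, and from 25510.3 to 1258874 (median 195349.9, n = 7) in Ceacam1-/- mice. Between the lowest library, 4, and the highest, 14, the sum differed 49.3-fold, and both belong to the same group. In shares of the library total, the list took from 0.100% (library 4) to 5.31% (library 14). In 35 of the 37 genes the 5 highest libraries were the same, namely 14, 15 and 18 of the Ceacam1-/- laser group, 21 of the wild type group without laser and 23 of the Ceacam1-/- group without laser. The exceptions were Rgs9, with library 27 in place of 15, and Prcd, with library 25 in place of 23. The highest value fell in library 14 for 25 genes and in library 18 for 12, and the lowest fell in library 25 for 22 genes. The 3 libraries 14, 15 and 18 therefore stood apart from the other 4 of their group, and values with and without them are given below.

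**Figure D1:**
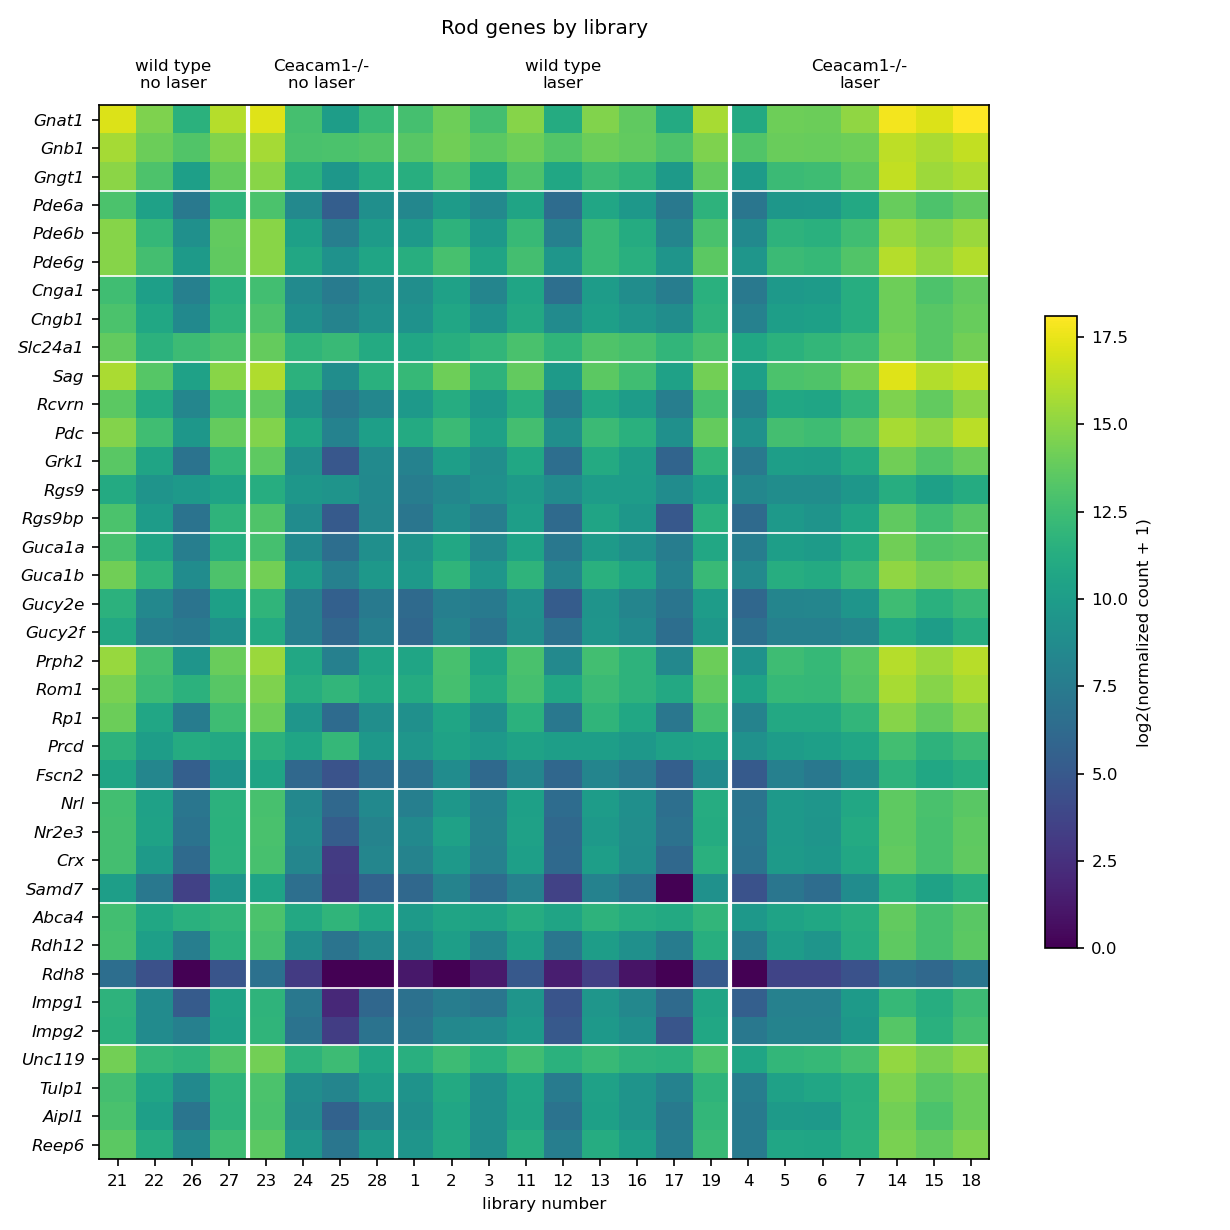
Heat map of the 37 rod genes (rows, ordered by role, with white lines between roles) in the 24 libraries (columns, by group), coloured by log2(normalized count + 1). Columns 21, 23, 14, 15 and 18 are bright in nearly all rows, and Gnb1, Slc24a1, Rgs9, Prcd, Abca4 and Unc119 differ less between columns than the rest.

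Marker genes of other cells of the eye were read in the same libraries. Of these lists, 20 further photoreceptor, 12 cone and 15 inner retinal neuron genes had high sums in the same libraries as the rod genes. Not every gene followed the sum of its list, as Trpm1 of the inner retinal neuron list was highest, at 6124, in library 7. The cone list summed to 55044, 24159.9 and 49501 in libraries 14, 15 and 18, against 1901 to 9564 in the other 4 Ceacam1-/- laser libraries. For the inner retinal neuron list, whose most abundant gene was Nefl in these 3 libraries and, over all 24, Trpm1, which melanocytes also express, the sums were 32431, 18728 and 40774 against 6724 to 14697. Libraries 14, 15 and 18 had the lowest sums of all 24 for RPE, endothelial and pigment genes, which belong to the tissue that the label names. Their 10 RPE genes, led by Ttr, summed to 63708, 49028 and 32329.9, against 174118 to 310077 in the other 4, and their 10 endothelial genes, led by Kdr in libraries 14 and 18 and by Plvap in library 15, to 11412, 21882 and 14789 against 35041 to 50598. The 6 pigment genes, led by Dct, summed to between 9739 and 27997 in these 3 libraries and to between 94111 and 190178 in the other 4. For 10 myeloid genes, led by Lyz2, the sums were 15850 to 27076 against 59090 to 88008. Library 15 also held the highest sum of 8 surface epithelium genes, 477752, with Krt12 the most abundant of them there. Library 25, the lowest for most rod genes, held the highest sums of the RPE list, 930349, and of the 10 muscle genes, 1028948, led by Acta1. The part that these differences between libraries have in any rod value was not tested.

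**Figure D2:**
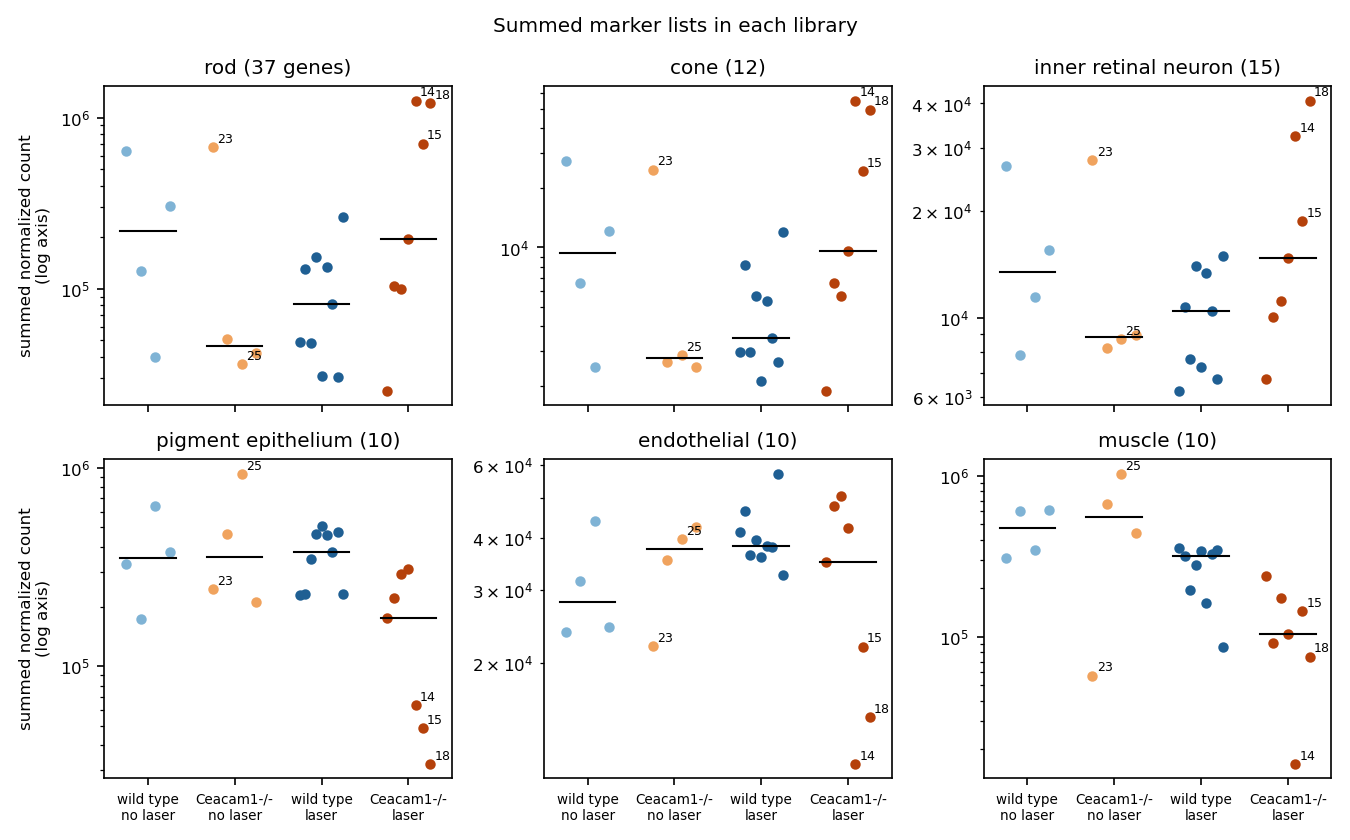
Summed normalized counts (log axis) of 6 marker lists in each library, with 1 point per library, a black line at the group median, and libraries 14, 15, 18, 23 and 25 numbered. Libraries 14, 15, 18 and 23 lie at the top of their groups for rod, cone and inner retinal neuron genes, and 14, 15 and 18 lie at the bottom for RPE and endothelial genes.

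The rod list followed the other photoreceptor genes closely. The median log2 value of the 37 rod genes minus that of the 20 other photoreceptor genes was between 0.66 and 1.34 in the 24 libraries (SD 0.21), while each of the medians alone had an SD of 2.05 and 2.10. Against the cone list the SD of the difference was 0.59, and against the inner retinal neuron list 0.76. It was 2.90 against the RPE list, 2.50 against the endothelial list, 2.09 against the 8 Müller glia genes, of which Rlbp1 had the highest mean over all libraries, and 3.13 against the muscle list. These SDs describe libraries that share 1 normalization, so the lists are not independent of each other. No gene of any list was at 0 in all libraries, and the genes at 0 in at least 1 library were Samd7 and Rdh8 of the rod list, Cnga3 and Cngb3 of the cone list, Grm6, Slc32a1, Slc17a6, Onecut1 and Lhx1 of the inner retinal neuron list, Myh13 of the muscle list, and Krt14, Krt12, Krt6a and Dsg1a of the surface epithelium list.

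Among the transducin genes, Gnat1 encodes the rod alpha subunit, Gngt1 the rod gamma subunit and Gnb1 a beta subunit that most cells use. Gnat1 (chr9:107551673-107556911 in GRCm39) was the most abundant rod gene by summed value and also per kilobase of the annotated canonical transcript, with a median of 7546 normalized counts per kb. It had 142058, 24741, 3082 and 69921 normalized counts in the wild type libraries without laser and 152477, 7114, 1053 and 4627 in those of Ceacam1-/- mice. After laser it ranged from 2169 to 54623 (median 13459, n = 9) in wild type and from 2012 to 281431 (median 35109, n = 7) in Ceacam1-/- mice. Each genotype thus held libraries near the top and near the bottom of the range. Gnb1 took the larger share where rod RNA was scarce, from 6.54% of the summed list in library 14 to 36.2% in library 4, while Gnat1 took from 2.89% in library 25 to 23.3% in library 18. Exon bases of Gnat1 are shared with the antisense gene Gm57061 over 50.7% of their length, and with a count that is not stated to use strand the genes cannot be told apart there.

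The rod phosphodiesterase is built from the catalytic subunits Pde6a and Pde6b and the inhibitory subunit Pde6g. Pde6g (chr11:120338431-120344326) followed the rest of the list most closely of all members. It had 28767, 6480.4, 926 and 13296 normalized counts in the wild type libraries without laser and 29899, 1835, 584 and 1619 in those of Ceacam1-/- mice. With laser its values ran from 696 to 11955 (median 2673, n = 9) in wild type and from 715 to 69420.3 (median 9269, n = 7) in Ceacam1-/- mice. Pde6a (chr18:61353387-61422995) was lower, with 8061, 1325, 162 and 3418 normalized counts in the wild type libraries without laser and 8004, 358, 40.8 and 504 in those of Ceacam1-/- mice, and 84.7 to 3279.9 and 135 to 15546 after laser. All 3 genes had library 25 as their lowest. Per kb the median ratio of Pde6b to Pde6a was 4.99 (3.03 to 8.33), and that of Pde6g to Pde6b 4.85 (3.04 to 10.1), with the range over the 24 libraries in brackets.

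The cyclic GMP-gated channel consists of Cnga1 and Cngb1, and Slc24a1 is the exchanger that returns calcium to the outside. Cnga1 (chr5:72761039-72801618) had 6061, 1215, 233 and 2709.5 normalized counts in the wild type libraries without laser and 6413, 402, 183 and 468 in those of Ceacam1-/- mice. In the laser groups it lay from 96.9 to 2866 (median 481, n = 9) in wild type and from 161 to 17755 (median 2499, n = 7) in Ceacam1-/- mice. The Cnga1 to Cngb1 ratio per kb, 1.75 (0.512 to 2.29), was below 1 only in libraries 12 and 17. Slc24a1 (chr9:64830143-64858889) varied far less, with 13884, 3231, 5364 and 7888 normalized counts in the wild type libraries without laser and 14582, 3695, 4840.4 and 2161 in those of Ceacam1-/- mice. With laser it ranged from 1669 to 8920.03 (median 3835, n = 9) in wild type and from 1733 to 20665 (median 5842, n = 7) in Ceacam1-/- mice. Its lowest value of all was 1669, in library 1, where Cnga1 had 481.

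Of the genes that end the light response, Sag (arrestin, chr1:87731402-87772880) was second to Gnat1 per kb. Its values were 57686, 10054, 1330.4 and 30113 normalized counts in the wild type libraries without laser and 64458, 3157, 475 and 2827 in those of Ceacam1-/- mice. Sag ranged from 917 to 19198 (median 5933, n = 9) in wild type and from 1163 to 151420.4 (median 20218, n = 7) in Ceacam1-/- mice after laser. Grk1, the receptor kinase, had a median of 153 per kb where Sag had 5479. Rcvrn, which restrains that kinase, and Pdc, which binds the transducin beta and gamma subunits, ranged over 208-fold and 291-fold across the libraries. Rgs9 (chr11:109116158-109189025), which speeds GTP hydrolysis by transducin, ranged only 12.2-fold, with 2118, 669, 885 and 1452 normalized counts in the wild type libraries without laser and 2445, 765, 676 and 385 in those of Ceacam1-/- mice. Rgs9 lay from 204 to 1156 (median 534, n = 9) in wild type and from 333 to 2478 (median 754, n = 7) in Ceacam1-/- mice after laser. Rgs9bp, the membrane anchor of Rgs9, ranged 440-fold. Partner transcripts of the same complex thus had unequal spreads, and their ratio per kb went from 0.0194 in library 25 to 2.05 in library 14.

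The cyclase group comprises the guanylate cyclases Gucy2e and Gucy2f and their activators Guca1a and Guca1b. Guca1a (chr17:47705483-47711509) had 7447, 1508, 212 and 2534 normalized counts in the wild type libraries without laser and 7049, 383, 92.6 and 521 in those of Ceacam1-/- mice. With laser it ran from 153 to 1885 (median 617, n = 9) in wild type and from 205 to 18699.7 (median 2238, n = 7) in Ceacam1-/- mice. The neighbouring gene Guca1b (chr17:47696301-47703910) had 18991, 3741, 445 and 8657 normalized counts in the wild type libraries without laser and 19735, 1007, 233 and 801 in those of Ceacam1-/- mice, and 259 to 5011 and 363 to 35386 after laser. The activators moved together, with a Guca1b to Guca1a ratio per kb of 1.19 (0.663 to 1.75). The values of Guca1a are uncertain, since 83.7% of its exon bases are also annotated to Gm50461 on the same strand. Both cyclases were low, with medians of 40.9 (Gucy2e) and 27.9 (Gucy2f) per kb.

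The disc genes had unequal ranges. Prph2 (chr17:47221385-47235859), a tetraspanin of the disc rim, had 40369, 7074, 699 and 16305 normalized counts in the wild type libraries without laser and 42441, 1874, 238 and 1501 in those of Ceacam1-/- mice, and ranged from 352 to 17149 (median 3326, n = 9) in wild type and from 601 to 74609 (median 10369.9, n = 7) in Ceacam1-/- mice with laser. Rp1, a microtubule-associated protein of the outer segment axoneme, and Fscn2, an actin-bundling protein, followed it over 363-fold and 137-fold ranges. Rom1, the partner tetraspanin of Prph2, kept at least 1364 normalized counts in every library. Prcd (chr11:116544360-116559221), a small disc protein, followed the others least. It had 3352, 1084, 2204 and 1943 normalized counts in the wild type libraries without laser and 3125, 1614, 4269.7 and 801 in those of Ceacam1-/- mice, and 733 to 1501 and 572 to 6382 with laser. In library 25, where Prph2 fell to its lowest value of 238, Prcd had 4269.7, above all values of the wild type group without laser. Exon bases of Prcd are shared with Cygb (17.2%) and Gm74062 (20.2%), both on the opposite strand.

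The transcription factors of the list are Nrl and Nr2e3, which set the rod fate, Crx, the homeodomain factor of all photoreceptors, and Samd7, a repressor of genes of other cell types in rods. Nrl (chr14:55756435-55762438) had 6371, 1281, 139 and 3196 normalized counts in the wild type libraries without laser and 7342, 349.7, 67.5 and 381 in those of Ceacam1-/- mice. In the laser groups it ranged from 81.7 to 2393 (median 516, n = 9) in wild type and from 121 to 12711 (median 1828, n = 7) in Ceacam1-/- mice. Crx reached from 7.69 in library 25 to 14113 in library 14, an 1836-fold range, and Nr2e3 covered 315-fold. Samd7, with 21.9% of its exon bases shared with the antisense Gm33590, was listed at 0 in library 17 and had 2917 in library 14. All 4 had the same 5 libraries highest as the genes of the outer segment.

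For the clearance of retinaldehyde, Abca4 moves its lipid conjugate across the disc membrane, and Rdh12 and Rdh8 reduce it. Abca4 (chr3:121838092-121973772) had 6308, 1802, 2825 and 3838 normalized counts in the wild type libraries without laser and 7911, 1947, 3736 and 1726 in those of Ceacam1-/- mice, and 953 to 3782 and 803 to 13805 with laser. Rdh12 (chr12:79255647-79269440) had 6931, 1179, 212 and 3187 normalized counts in the wild type libraries without laser and 6726, 467, 125 and 352 in those of Ceacam1-/- mice, and ranged from 135 to 2552 (median 549, n = 9) in wild type and from 175 to 12790.1 (median 2364, n = 7) in Ceacam1-/- mice with laser. Abca4 thus spanned 17.2-fold over all libraries and Rdh12 102-fold. Rdh8 was the scarcest member, listed at 0 in 6 libraries, and its highest value was 136, in library 18.

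The interphotoreceptor matrix genes Impg1 and Impg2 encode proteoglycans around the outer segments. Impg1 (chr9:80220059-80347728) had 3322, 431, 36.4 and 1467 normalized counts in the wild type libraries without laser and 3458, 153, 3.14 and 63.8 in those of Ceacam1-/- mice, and ranged from 25 to 1488 (median 202, n = 9) in wild type and from 43.3 to 5380.4 (median 946, n = 7) in Ceacam1-/- mice after laser. Over all libraries it spanned 1712-fold, and Impg2 1153-fold. The last group carries or folds outer segment proteins, with Unc119, which binds lipid-anchored transducin, Tulp1, which acts in transport to the outer segment, Aipl1, the chaperone of the phosphodiesterase, and Reep6 of the endoplasmic reticulum. Unc119 (chr11:78234257-78245730) had 19495, 4334, 3474 and 9569 normalized counts in the wild type libraries without laser and 19041, 3412, 5344 and 1798 in those of Ceacam1-/- mice, and 2762 to 8143 and 1624 to 37066 with laser. Aipl1 spanned 379-fold, Reep6 185-fold, Tulp1 129-fold and Unc119 22.8-fold. In each of these groups the values of the genotypes overlapped.

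How far a member followed the others was measured by its log2 value minus the median of the other 36 in the same library, and by the slope of its log2 value on that median. The members' own log2 values had SDs between 0.94 (Prcd) and 2.86 (Samd7) over the 24 libraries, with a median of 2.24. The SD of the difference from the others was under 0.5 for 20 members, between 0.5 and 1 for 9 and at least 1 for 8. It was smallest for Pde6g (0.18), Rdh12 (0.20) and Guca1b (0.28), so that over its own 119-fold range Pde6g stayed between 1.61 and 2.20 log2 units above the others. The slope was within 0.25 of 1 for 24 members. It was lower for 8, namely Prcd (0.27), Rgs9 (0.36), Slc24a1 (0.39), Abca4 (0.40), Gnb1 (0.50), Unc119 (0.55), Rom1 (0.72) and Gucy2f (0.74). These 8 kept more of their level in the libraries that were poor in rod RNA, as shown by Prcd, which was 4.87 log2 units above the others in library 25 and 1.53 below them at its lowest. The slope was higher for 5 members, Samd7, Crx, Grk1, Rgs9bp and Impg1. All members were measured in the same libraries and are not replicates of each other.

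**Figure D3:**
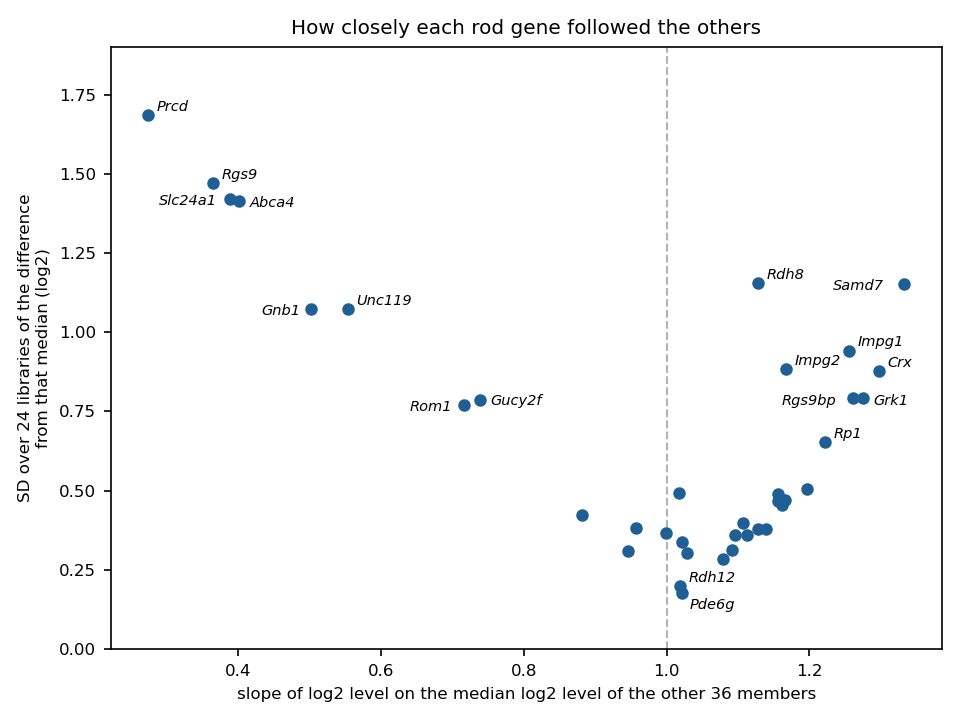
For each of the 37 genes, the slope of its log2 level on the median log2 level of the other 36 (x axis) against the SD over 24 libraries of its log2 difference from that median (y axis), with 1 point per gene. Pde6g and Rdh12 lie lowest, near the dashed line at a slope of 1, and Prcd, Rgs9, Slc24a1 and Abca4 lie at the upper left.

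The ratios between partners give the same pattern on a linear scale per kb. The ratio of Gnat1 to Gngt1, the alpha and gamma subunits, had a median of 1.5 (0.659 to 2.57), a 3.90-fold range over libraries in which Gnat1 itself ranged 267-fold. Gnat1 to Sag was 1.62 (0.727 to 2.24) and Gnat1 to Pde6b 6.85 (5.6 to 12). By contrast, Gnat1 to Gnb1 was 1.48 (0.177 to 4.24), a 23.9-fold range, and Prph2 to Rom1 0.615 (0.0349 to 1.04), a 29.7-fold range. Rgs9bp to Rgs9 ranged 106-fold. In these last 3 pairs the lowest ratio was in library 25. Impg1 to Impg2 ranged 18.6-fold and Gucy2e to Gucy2f 8.50-fold, with their lowest ratios in libraries 26 and 12.

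**Figure D4:**
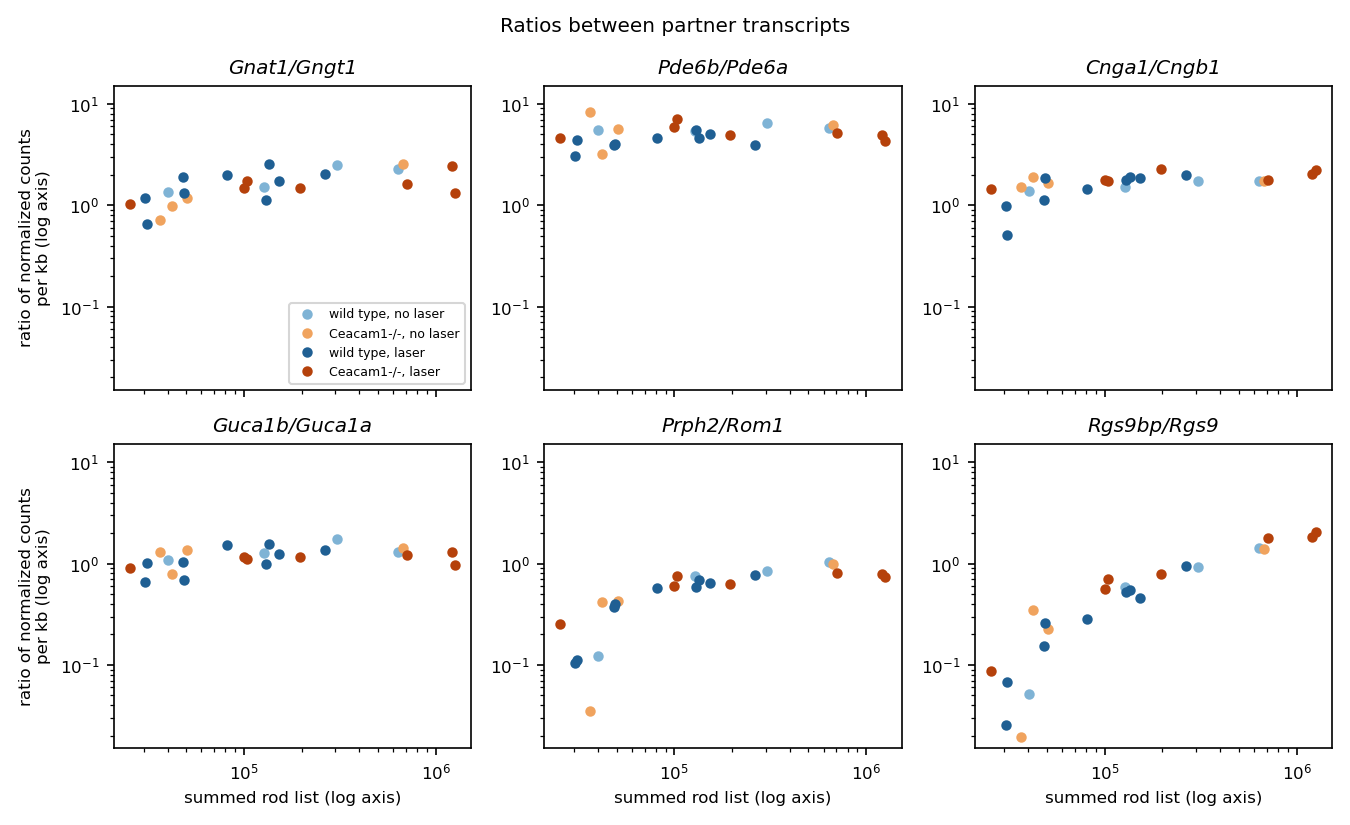
Ratio of normalized counts per kb for 6 pairs of partner genes (y axis, log) against the summed rod list (x axis, normalized counts, log), with 1 point per library coloured by group. The first 4 pairs range 4.46-fold or less, while Prph2/Rom1 and Rgs9bp/Rgs9 reach their lowest values in library 25.

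The promoters of the members were also searched for short sequences on both strands. The first was TAATCC, the core of the site that CRX binds, which reads GGATTA on the other strand. The second was TGCTGA, the half-site of factors such as NRL, which reads TCAGCA on the other strand. The window of 300 bases ran from 250 before to 50 after the start of the canonical transcript. TAATCC was present in 14 of 37 members (37.8%) and in 7.69% of the 21599 promoters of protein-coding genes. TGCTGA was present in 11 members (29.7%) and in 17.9% of all promoters, and both in 5 members (13.5%) and 1.42%. Of the 8 members with a lower slope, 2 had TAATCC (Abca4 and Gucy2f) and 1 had TGCTGA (Rgs9). Of the 24 with a slope near 1, 10 had TAATCC and 8 TGCTGA, and of the 5 with a higher slope 2 had the first and 2 the second. The 140 bases before the start are shown for Cngb1, Aipl1 and Crx, which with Gucy2f hold TAATCC at 2 places, for Pde6g, the closest follower, for Gnat1, the most abundant, and for Prcd, the loosest follower, which held neither. Sequences run 5′ to 3′ towards the gene, and capitals mark the matches that lie within these bases.
Cngb1 (GRCm39, chr8:96033214-96033353, minus strand): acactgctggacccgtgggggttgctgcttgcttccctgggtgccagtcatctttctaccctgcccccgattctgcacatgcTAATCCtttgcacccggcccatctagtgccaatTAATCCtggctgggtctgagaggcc
Aipl1 (GRCm39, chr11:71928316-71928455, minus strand): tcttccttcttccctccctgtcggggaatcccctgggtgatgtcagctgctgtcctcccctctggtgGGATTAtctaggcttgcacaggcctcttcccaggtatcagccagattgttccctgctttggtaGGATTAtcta
Crx (GRCm39, chr7:15613894-15614033, minus strand): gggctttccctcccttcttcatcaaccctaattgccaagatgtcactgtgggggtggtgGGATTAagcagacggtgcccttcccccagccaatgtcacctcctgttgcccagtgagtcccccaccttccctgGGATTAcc
Pde6g (GRCm39, chr11:120344327-120344466, minus strand): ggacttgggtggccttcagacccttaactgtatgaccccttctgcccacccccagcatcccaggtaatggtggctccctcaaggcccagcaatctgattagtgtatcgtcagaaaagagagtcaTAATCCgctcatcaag
Gnat1 (GRCm39, chr9:107556912-107557051, minus strand): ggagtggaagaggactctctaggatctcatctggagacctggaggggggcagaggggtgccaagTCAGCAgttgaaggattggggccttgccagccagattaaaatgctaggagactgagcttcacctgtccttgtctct
Prcd (GRCm39, chr11:116544220-116544359, plus strand): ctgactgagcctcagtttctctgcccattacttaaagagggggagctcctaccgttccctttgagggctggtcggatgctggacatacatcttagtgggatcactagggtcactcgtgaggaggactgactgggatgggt

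In Pde6g the match began 16 bases before the start, and in Cngb1 the matches began 58 and 25 bases before it. A match of 6 letters is a description of these windows and was not tested as a site. A link between the matches and the levels in these libraries was not tested either.

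The study itself compared genotypes without laser, using DESeq2 with sex as a covariate. It reported a small number of differentially expressed genes at an adjusted p under 0.05. The fits given here used limma without sex, so their calls differ in method from those of the study. In the same comparison 36 of 37 rod genes had a lower mean log2 value in the Ceacam1-/- libraries, and Prcd was the exception at a log2 fold change of 0.04. On the linear scale the means of Prcd (wild type 2146 ± 936 and knockout 2452 ± 1548 normalized counts, mean ± SD over 4 libraries each) and Abca4 (3693 ± 1931 and 3830.1 ± 2866) were both higher in the Ceacam1-/- group, by less than the SD of either group. The median log2 fold change of the members was -1.45 (from -2.39 for Impg2 to 0.04), against -0.02 over all 20057 genes tested. The matrix genes had the lowest values (Impg1 -2.28 and Impg2 -2.39), and the transcription factors ran from -1.99 (Crx) to -1.14 (Samd7). Gnat1 had a log2 fold change of -1.79 (standard error 1.59, 95% confidence interval -5.40 to 1.82, adjusted p = 0.999), Pde6g of -1.37 (standard error 1.33, 95% confidence interval -4.39 to 1.65, adjusted p = 0.999) and Nrl of -1.44 (standard error 1.52, 95% confidence interval -4.89 to 2.01, adjusted p = 0.999), all from limma with Benjamini-Hochberg adjustment over all genes. No member passed the adjusted threshold of 0.05 in this fit, and unlike in the study none of the 20057 genes did (0.00%). At an unadjusted p under 0.05 there was no member either, and 1.53% of all genes. With libraries weighted by quality 29 members, all lower, were under that p, and the share of all genes is given with the processing. The median standard error of the members was 1.47 log2 units, and each group held 1 library with a high rod sum (21 and 23) and 1 or more with a low one (26, and 24, 25 and 28). Without library 23 the members' median was -2.68 and 18 were lower at an unadjusted p under 0.05, against 4.96% of all genes, with no member called after adjustment. The median was -2.51, -0.68 and -0.48 without libraries 26, 21 and 25. The exact two-sided permutation p of the 16 members given by library was between 0.400 and 0.971, unadjusted over 64 such tests, where 4 libraries against 4 allow 0.0286 at the smallest. The groups overlapped for all 37 members, and here and below the overlap of whole groups is given for the members only, not for all genes.

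After laser the same comparison ran the other way. All 37 members had a higher mean log2 value in Ceacam1-/- than in wild type libraries, with a median log2 fold change of 1.93 (from 0.53 for Slc24a1 to 2.47 for Rdh8), against 0.01 over all 19757 genes tested. No member passed the adjusted threshold, with adjusted p from 0.179 to 0.511, and 0.0202% of all genes did. An unadjusted p under 0.05 was reached by 22 members, all higher, while 12.8% of all genes were higher at that p. With Y-linked genes as a covariate no member reached it (5.93% of all genes higher), nor did any with libraries weighted by quality (9.21%). Among the 22 were Gngt1, Pde6b, Pde6g, Cnga1, Guca1a, Guca1b, Prph2, Nrl, Nr2e3 and Crx. Gnat1 had a log2 fold change of 1.91 (standard error 0.95, 95% confidence interval -0.09 to 3.90, adjusted p = 0.235), Pde6g of 1.99 (standard error 0.88, 95% confidence interval 0.14 to 3.83, adjusted p = 0.198), Nrl of 2.23 (standard error 0.94, 95% confidence interval 0.25 to 4.20, adjusted p = 0.188) and Prcd of 0.86 (standard error 0.41, 95% confidence interval -0.02 to 1.73, adjusted p = 0.226), by limma. The exact permutation p of the 16 members given by library lay between 0.0449 (Guca1a) and 0.343.

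In all 37 members libraries 14, 15 and 18 were above every wild type laser library, as in 16.9% of the 19757 genes tested, counted on libraries singled out after seeing the data. In 26 of 37 the other 4 Ceacam1-/- laser libraries lay within the range of the wild type ones, a count given for the members only and not for all genes. Without these 3 libraries, a choice made after seeing the data, the members' median log2 fold change was 0.20, with 28 of the 36 members then tested higher and none at an unadjusted p under 0.05. The groups overlapped in all 37 members, a count again given for the members only. The count of 22 was 0 without any 1 of libraries 14, 15 and 18, and it was 9, 6, 3 and 1 without wild type libraries 1, 3, 12 and 17, where 11%, 11.2%, 9.62% and 12.5% of all genes were higher at that p. It was 13 without library 7 and 35 without library 4, where 13% and 16.7% of all genes were higher. Over all fits without 1 library, those without 14, 15 or 18 included, 6.73% to 16.7% of all genes were higher at that p. In the same comparison all 20 other photoreceptor genes were higher (median 1.89), all 10 RPE genes lower (median -1.53) and all 10 endothelial genes lower (median -0.54), and none of these genes passed the adjusted threshold.

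**Figure D5:**
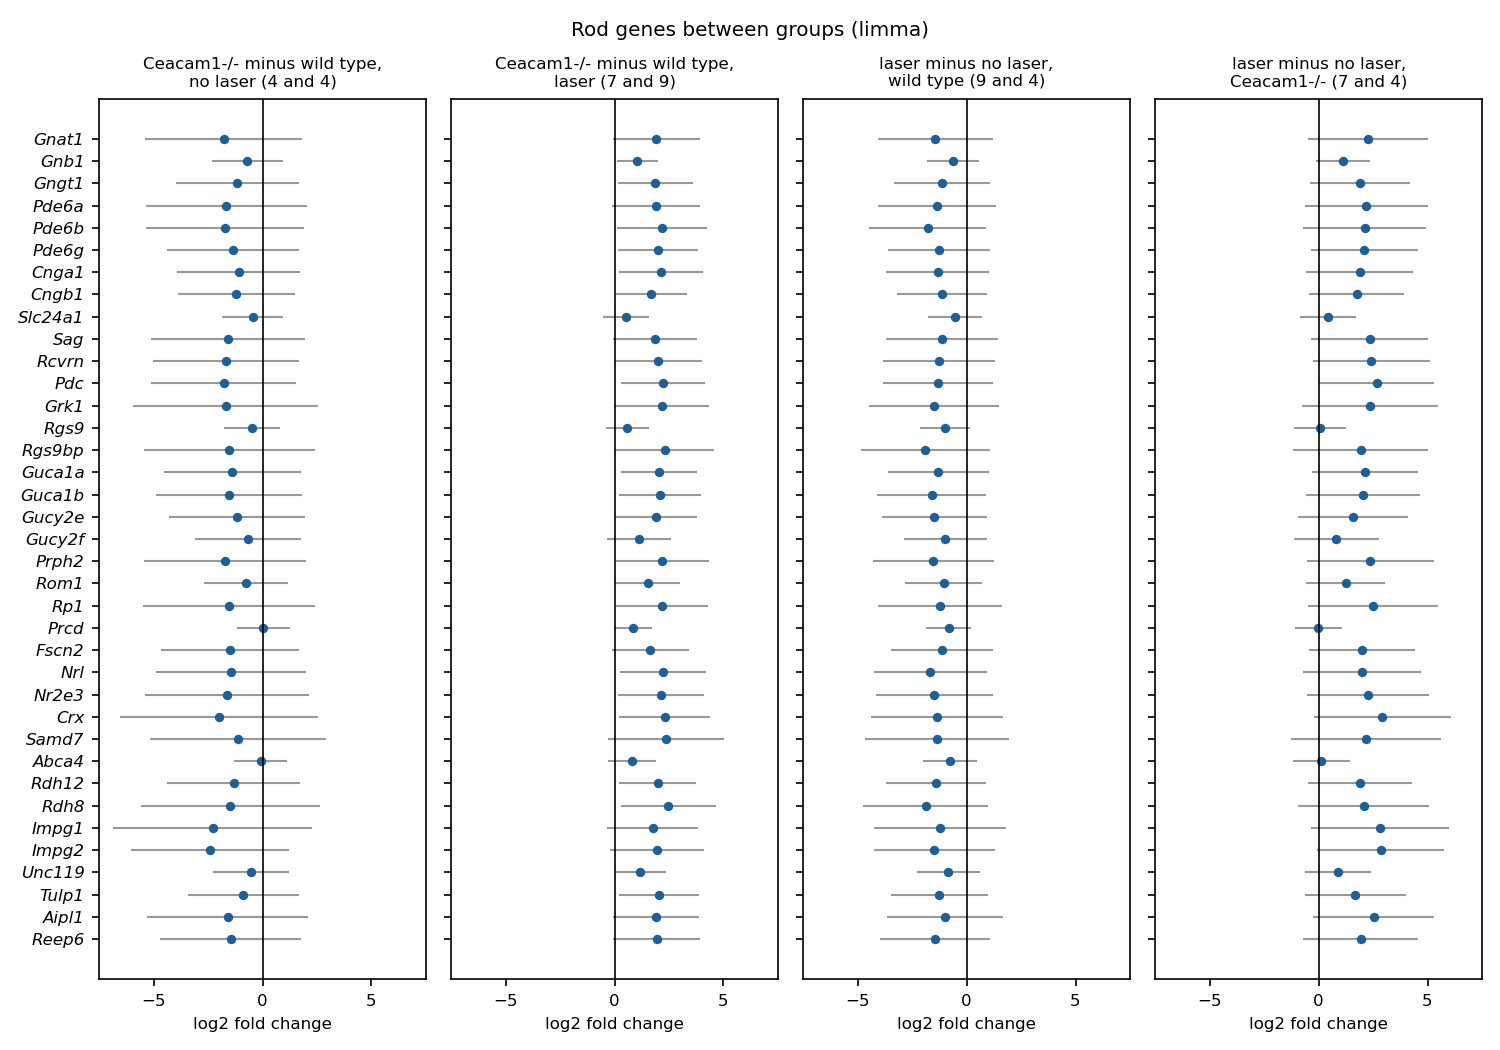
Log2 fold change of each rod gene (point) with its 95% confidence interval from limma (line) in 4 comparisons, named above each panel with the number of libraries of each group. Points lie below 0 for 36 genes (genotype without laser) and all 37 (laser in wild type), and above 0 for 37 (genotype with laser) and 36 (laser in Ceacam1-/-), every interval for genotype without laser and for laser in wild type crosses 0, and 22 for genotype with laser do not.

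Within wild type mice the laser group had less rod RNA on average, a difference that passed the test in no member. All 37 members had a lower mean log2 value with laser, with a median log2 fold change of -1.29 (from -1.90 for Rgs9bp to -0.53 for Slc24a1), against -0.10 over the 19950 genes tested. Adjusted p was between 0.330 and 0.683, so no member passed, while 5.28% of all genes did. No member had an unadjusted p under 0.05 either, while 8.53% of all genes were lower at that p. Gnat1 had -1.44 (standard error 1.28, 95% confidence interval -4.08 to 1.21, adjusted p = 0.541), Pde6g -1.26 (standard error 1.14, 95% confidence interval -3.61 to 1.1, adjusted p = 0.547) and Prcd -0.83 (standard error 0.51, 95% confidence interval -1.87 to 0.22, adjusted p = 0.368) as log2 fold changes by limma. The exact permutation p was between 0.0168 (Prcd) and 0.357 for the 16 members given by library. The wild type libraries without laser spanned a wide range, with library 26 near the lowest laser libraries 12 and 17, and the groups overlapped in all members. Without library 26 the members' median was -2.26, and without library 21 it was -0.57. Without library 26, 4 members were lower at an unadjusted p under 0.05, as were 9.37% of all genes. With libraries weighted by their quality, 6 members (Pde6b, Rgs9, Guca1b, Prcd, Nrl and Rdh12) were lower with an adjusted p of 0.0411 to 0.0466 by limma, a setting that called 32.6% of all genes. With libraries weighted equally, all 20 other photoreceptor genes were lower in this comparison (median -1.31), as were all 10 muscle genes (-0.95) and 7 of 8 surface epithelium genes (-1.40), while 5 of 10 RPE genes were higher (median -0.01). None of these genes passed the adjusted threshold, and the part of other tissue in the rod values was not tested.

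Within Ceacam1-/- mice 36 of 37 members had a higher mean log2 value with laser, and Prcd was at a log2 fold change of -0.01, while its linear mean was 2452 ± 1548 without (SD, n = 4) and 2809 ± 2304 with laser (n = 7). The median log2 fold change was 2.04, up to 2.93 for Crx, against 0.02 over all genes. No member passed the adjusted threshold (lowest adjusted p 0.242), while 3.72% of all genes did, and only Pdc had an unadjusted p under 0.05 (0.0472), where 9.40% of all genes were higher at that p. Gnat1 had 2.26 (standard error 1.34, 95% confidence interval -0.50 to 5.03, adjusted p = 0.356) and Nrl 2.00 (standard error 1.30, 95% confidence interval -0.70 to 4.70, adjusted p = 0.406) as log2 fold changes by limma. The 16 members given by library had an exact permutation p between 0.182 and 0.997. Without library 23, Pdc (log2 fold change 3.92, adjusted p = 0.0465) and Impg2 (4.37, adjusted p = 0.0400) passed the threshold by limma, as 12.5% of all genes did, and the median of the members was 3.31. At an unadjusted p under 0.05, 30 members were then higher, against 15.7% of all genes, and without library 4 it was 27 members, against 10.4% of all genes. Without library 25 the median was 1.15. Without libraries 14, 15 and 18 the median was 0.30, with 28 members higher and 9 lower, and the 2 members at an unadjusted p under 0.05 were lower, as were 10.2% of all genes at that p. With the mean log2 value of the other photoreceptor genes as a covariate, the median was 0.18, and Pdc was higher by 0.79 (adjusted p = 0.0296, limma), in a fit that called 5.40% of all genes. Over all libraries and without that covariate, all 20 other photoreceptor genes were higher in this comparison (median 1.79), all 10 RPE genes lower (-1.56), all 10 muscle genes lower (-2.08) and all 8 surface epithelium genes lower (-2.54). None of these genes passed the adjusted threshold, and their part in the rod values was not tested either. The 2 laser comparisons and the 2 genotype comparisons share their libraries, so these values are not independent of each other.

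The laser effects of the genotypes were compared as an interaction in the model of all 24 libraries. All 37 members had a more positive laser effect in Ceacam1-/- than in wild type mice, with a median difference of 3.46 log2 units (from 0.82 for Prcd to 4.32 for Impg2), against 0.01 over all genes. Gnat1 differed by 3.70 (standard error 1.85, 95% confidence interval -0.13 to 7.53, adjusted p = 0.64), Pde6g by 3.35 (standard error 1.65, 95% confidence interval -0.05 to 6.76, adjusted p = 0.64) and Nrl by 3.67 (standard error 1.81, 95% confidence interval -0.07 to 7.41, adjusted p = 0.64), by limma. No member passed the adjusted threshold, nor did any gene (0.00%), and the lowest adjusted p of a member was 0.640. Pdc, Guca1a, Guca1b and Impg2 had an unadjusted p under 0.05, where 3.79% of all genes were higher at that p. The count of such members was 30 with libraries weighted by quality and 0 with Y-linked genes as a covariate, with the shares of all genes given below. This count was 33 without library 23, where 12.1% of all genes were higher at that p. It was 31, 31 and 20 without libraries 4, 26 and 19, where 6.90%, 7.01% and 5.20% of all genes were higher, and 0 without any 1 of libraries 14, 18, 21, 24, 25, 27 and 28. Over all fits without 1 library, 1.33% to 12.1% of all genes were higher at that p. Without libraries 14, 15 and 18 the median was 1.72 and no member had an unadjusted p under 0.05.

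The size of the spread is the common feature of all 5 comparisons. Within groups the residual SD of the members was 2.19 log2 units at the median, against 0.59 over all genes, and 31 of the 37 were above the 90th percentile of all genes. The lowest member stood at the 72.8th percentile and the highest, Samd7, at the 99.0th. With the other photoreceptor genes as a covariate, the median residual SD of the members was 0.41 in the model of all libraries, against 0.49 for all genes, and the members' median log2 fold changes were -0.06 and 0.08 for genotype without and with laser, 0.02 and 0.18 for laser in wild type and Ceacam1-/- mice, and 0.16 for the interaction. That covariate followed the rod list closely, so it takes up any difference in rod RNA that photoreceptor genes share. The origin of such a difference was not tested.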

How the data were processed

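Total RNA of mouse choroid was sequenced as SMART-Seq libraries. Per the study's methods, reads were checked with FastQC 0.11.5, quantified with salmon 1.10.3 on GRCm39 (vM35) and imported into DESeq2 1.44.0. The deposited signal is the normalized count per gene, which the authors scaled for library size and average transcript length. The study removed 1 outlier library, not named in the sources used here, and adjusted for sex, which the labels do not give. Near-whole multiples of a read made up 32.8% to 76.5% of low values by library, so reads were not recovered and no count test was run.

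From these values, log2(value + 1) was tested with limma 3.58.1 (R 4.3.3, intensity trend) for genes with a mean of at least 10 over the libraries of a fit, with Benjamini-Hochberg adjustment over all genes and a threshold of 0.05. Fold changes on this scale understate those of low genes. Genotypes were compared within the laser or no-laser libraries, and both laser effects and the interaction came from 1 model of 24 libraries. Exact two-sided permutation tests were computed with numpy 2.4.6. The scripts were tested on simulated data. Positions, lengths and promoters came from GENCODE vM39 on GRCm39, to which 99.1% of the deposited genes matched. Members, gene lists and tests were chosen with earlier results of these data known. Values by library were given for the first gene of each role and for the 3 loosest and 3 closest followers, and some other members were named after their values were seen. Alternatives were other pseudocounts, filters, scalings, limma settings, covariates and sets of libraries.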

Additional observations from a re-analysis of the deposited data

Results flagged for a closer look

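Sets of values were checked for a single value far from the others (17 measures in groups of 4, 4, 9 and 7 libraries). Of the 68 sets, 17 were marked. The check used normalized counts and not log2 values. Its rule marks about 1 in 20 by chance, which need not hold for values as unequal as these. No excess over chance is therefore read from the count, and the genes are not independent. In the Ceacam1-/- group without laser, library 23 lay far above libraries 24, 25 and 28 in 12 of the marked sets. Its rod sum was 674204 normalized counts. Its values were 152477 for Gnat1, 8004 for Pde6a, 6413 for Cnga1, 64458 for Sag, 7049 for Guca1a and 42441 for Prph2. They were 7342 for Nrl, 3458 for Impg1, 29899 for Pde6g, 6726 for Rdh12 and 19735 for Guca1b. In the wild type laser group, library 19 was marked for 5 genes, with 3280 for Pde6a, 17149 for Prph2, 2393 for Nrl, 1488 for Impg1 and 2552 for Rdh12. It was also the highest of that group for genes that were not marked, such as Gnat1 with 54623. Library 19 also had the highest Ceacam1 of its group, 8367 normalized counts, and the highest sum of 8 surface epithelium genes of its group, 136202 against a median of 2867.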

How the results depend on the processing

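Of 1272 values under alternative settings, 1147 kept their direction and side of the threshold or stayed within the limits set. The cause of the changes below was not tested. Without laser, genotype called 0 genes, and 1 with upper-quartile scaling, without the trend or with array weights (libraries weighted by quality). Members with an unadjusted p under 0.05 went from 0 to 29 with array weights, all lower, where 7.16% of all genes were lower at that p.

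For genotype with laser, 4 genes were called, against 2 at a mean of at least 50, 297 with array weights, 9 in the model of all 24 libraries and 2 without libraries 14, 15 and 18. The 22 members at an unadjusted p under 0.05 became 14 without the trend (12.7% of all genes higher at that p), 0 with array weights (9.21%), 0 with Y-linked genes as a covariate (5.93%), 1 with the other photoreceptor genes as a covariate (4.13%), 11 in the model of all libraries (12.2%) and 0 without libraries 14, 15 and 18 (4.44%).

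For laser in wild type mice, array weights called 6 members in place of 0 and 6505 genes in place of 1053. The genes called were 2274 with only the groups compared and 2128 without libraries 14, 15 and 18. Members at an unadjusted p under 0.05 went from 0 to 28 lower with array weights (24.2% of all genes lower), 1 higher with the photoreceptor covariate (10.6% higher), 2 lower with only the groups compared (12.1% lower) and 2 lower without the 3 libraries (11.4% lower). For laser in Ceacam1-/- mice, 742 genes became 437 with no filter, 3551 with array weights, 38 with only the groups compared and 2005 without the 3 libraries. The photoreceptor covariate called 1 member, and its count at an unadjusted p under 0.05 was 3 (11.1% of all genes higher). That count was 1 in the model without changes (9.40% of all genes higher). Without the 3 libraries it was 2, both lower (10.2% of all genes lower). It was 0 with quantile normalization (8.78% of all genes higher), without the trend (9.11%) or with array weights (15.8%). It was also 0 with the Y-linked covariate (9.08%) or with only the groups compared (6.10%). For the interaction it went from 4 to 9 with no filter (3.33% of all genes higher), 2 without the trend (3.59%), 30 with array weights (8.33%), 0 with the Y-linked covariate (2.33%), 1 with the photoreceptor covariate (0.952%) and 0 without the 3 libraries (1.43%), and the members' median from 3.46 to 0.16 with the photoreceptor covariate.

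Directions turned for Prcd, at -0.15 without laser with array weights, -0.09 with laser without the 3 libraries, 0.06 (quantile normalization) and 0.00 (Y-linked covariate) for laser in Ceacam1-/- mice, and -0.02 (photoreceptor covariate) and -0.13 (without the 3 libraries) for the interaction. With the photoreceptor covariate Gnat1 was at -0.08 for genotype with laser, and Gnat1 and Pde6g at 0.06 and 0.07 for laser in wild type mice.

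Leaving out 1 library at a time, genotype without laser gave 0 to 1 genes, 0 to 18 members at an unadjusted p under 0.05 and a members' median of -2.68 to -0.48, with Prcd from -0.32 to 0.49, where 0.219% to 4.96% of all genes were lower at that p. Genotype with laser gave 4 to 61 genes, 0 to 35 members (6.73% to 16.7% of all genes higher) and a median of 1.5 to 2.63. Laser in wild type mice gave 479 to 1257 genes, 0 to 4 members (5.84% to 9.61% of all genes lower) and -2.26 to -0.57. Laser in Ceacam1-/- mice gave 148 to 2488 genes, 0 to 2 called members, 0 to 30 at the unadjusted p (5.82% to 15.7% of all genes higher) and 1.15 to 3.31, with Prcd from -0.46 to 0.35. The interaction gave 0 genes throughout, 0 to 33 members (1.33% to 12.1% of all genes higher) and 2.47 to 4.79. No paired analysis was possible because the library numbers are unique to each sample and the groups share none. The depth of the libraries in reads is not known from normalized counts, so the limit it sets could not be given.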

Other observations

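Of 10 myeloid genes, 9 rose in wild type mice (median log2 fold change 2.30) and 7 in Ceacam1-/- mice (1.59), by limma with Benjamini-Hochberg adjustment over all genes, in fits that called 5.28% and 3.72% of all genes. Libraries 14, 15 and 18 of the Ceacam1-/- laser group held myeloid sums of 15850 to 27076 normalized counts, against 59090 to 88008 in its other 4 libraries, and their part in the lower values of that group was not tested. Myeloid genes are those of macrophages, microglia and related cells. Aif1, Ptprc, Cd68, Lyz2, Adgre1, Fcer1g and Tyrobp passed in both, and Itgam and Cx3cr1 in wild type mice only by this threshold, while the difference between genotypes called no gene. The other genes called in the lists were the cone gene Rxrg, which fell, and the Müller glia gene Crym, which rose, both with laser in Ceacam1-/- mice. In that comparison 11 of 12 cone genes were higher (median log2 fold change 1.51), as were 4 of 8 Müller glia genes (0.06). Surface epithelium genes spanned 725-fold and lens genes 452-fold between libraries.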
